A study of Mus musculus with 15 samples.

Results

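The ADAMTS, MMP and TIMP families, whose proteins cut the extracellular matrix or block that cutting, were followed in RNA from mouse cerebral vessels. Members were chosen by name from the deposited expression table, as all genes named Adamts, Mmp with a number, or Timp1 to Timp4. This gave 48 of 22526 gene symbols, made up of 19 ADAMTS proteases, 5 ADAMTS-like (ADAMTSL) genes, 20 matrix metalloproteinases (MMP) and 4 tissue inhibitors of metalloproteinases (TIMP).

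Matrix metalloproteinases and ADAMTS proteases are zinc enzymes made as inactive precursors, and most are secreted while some matrix metalloproteinases sit in the cell membrane. Matrix metalloproteinases cut collagens, basement membrane proteins and many signalling proteins, whereas ADAMTS proteases cut proteoglycans such as versican and aggrecan, procollagens or von Willebrand factor, and ADAMTS-like proteins carry related binding domains without the protease domain. The tissue inhibitors bind the active site of these enzymes, and in brain vessels the balance is known for its bearing on the basement membrane and on barrier leakage.

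All mice were wild-type C57BL/6 aged 8 months, and every group had received an adeno-associated virus (AAV) by injection into the brain. LH3-AL mice received AAV-LH3, a virus carrying LH3, the lysyl hydroxylase that the gene Plod3 encodes, and then angiotensin II (AngII) plus L-NAME, which blocks the making of nitric oxide. GFP-AL mice received AAV-GFP, carrying green fluorescent protein, and the same drugs, which raise blood pressure. GFP-Veh mice received AAV-GFP and saline. Each group had 5 RNA sequencing libraries, 15 in all, and no group had the LH3 virus with saline. The promoter of the virus and the cells it entered are not stated in the labels, nor whether each library came from its own mouse, so p-values measure the spread between these libraries.

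Levels are FPKM, fragments scaled to transcript length and library size, which allow levels of different genes to be compared. Estimated depth, in M fragments (M for mega), was 18.05 to 31.65 in LH3-AL, 21.11 to 27.8 in GFP-AL and 13.5 to 29.7 in GFP-Veh, where 4 of the 5 libraries had 16.06 or fewer. Plod3 averaged 21.6 ± 1.46 FPKM in LH3-AL, 13.9 ± 1.09 in GFP-AL and 16.8 ± 0.621 in GFP-Veh (SD, n = 5 each), and the LH3-AL libraries lay above all others. Vessel markers were present, with 11 endothelial genes summing to 2174 to 3447 FPKM in LH3-AL, 3323 to 5085 in GFP-AL and 2345 to 3315 in GFP-Veh. These genes did not move together. In the test below, 4 were called higher and 3 lower in GFP-AL against GFP-Veh, where 10.8% and 17.7% of all genes were. Slc2a1 averaged 842 FPKM in LH3-AL, 1369 in GFP-AL and 732 in GFP-Veh. Tek averaged 64.7 FPKM in LH3-AL, 36.8 in GFP-AL and 69.3 in GFP-Veh. Markers of choroid plexus and ependyma were also present although the preparation removed the choroid plexus: Ttr, the transthyretin gene, averaged 4137 FPKM in LH3-AL, 2648 in GFP-AL and 5122 in GFP-Veh. On principal components, GFP-AL replicates 2 and 3 lay farthest from the other libraries on the first component and GFP-Veh replicate 2 on the third, so counts are also given without these 3 libraries. In bulk RNA, fewer cells of a type and less RNA per cell cannot be told apart.

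The 48 members spanned a wide range of levels, with the inhibitor Timp3 highest and several proteases near 0. Timp3 made up 62.7% to 85.9% of the summed FPKM of the TIMP genes in LH3-AL libraries, 76.4% to 88.6% in GFP-AL and 68.7% to 80.8% in GFP-Veh. Adamts1 was the main ADAMTS transcript in GFP-AL, at 65.1% to 84.1% of the family's summed FPKM, and its share was 24.2% to 64.5% in LH3-AL and 52.8% to 72.9% in GFP-Veh. Among matrix metalloproteinases no member stood out in this way, and Mmp15, Mmp14 and Mmp28 led in saline-treated vessels. At least 1 FPKM on average over all libraries was found for 30 members (10 ADAMTS, 3 ADAMTSL, 13 MMP and 4 TIMP), which entered the test, and 18 did not reach it. Adamts5, an aggrecan-cutting protease, was just inside at 1.09 FPKM, and Adamtsl1 was just outside at 0.962 FPKM. Adamts8 and Mmp3 reached a mean of 1 FPKM in the GFP-AL group only, so the filter admitted them through the group in which they were high. In every library Adamts13, Mmp1a and Mmp21 stayed below 0.1 FPKM.

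**Figure D1:**
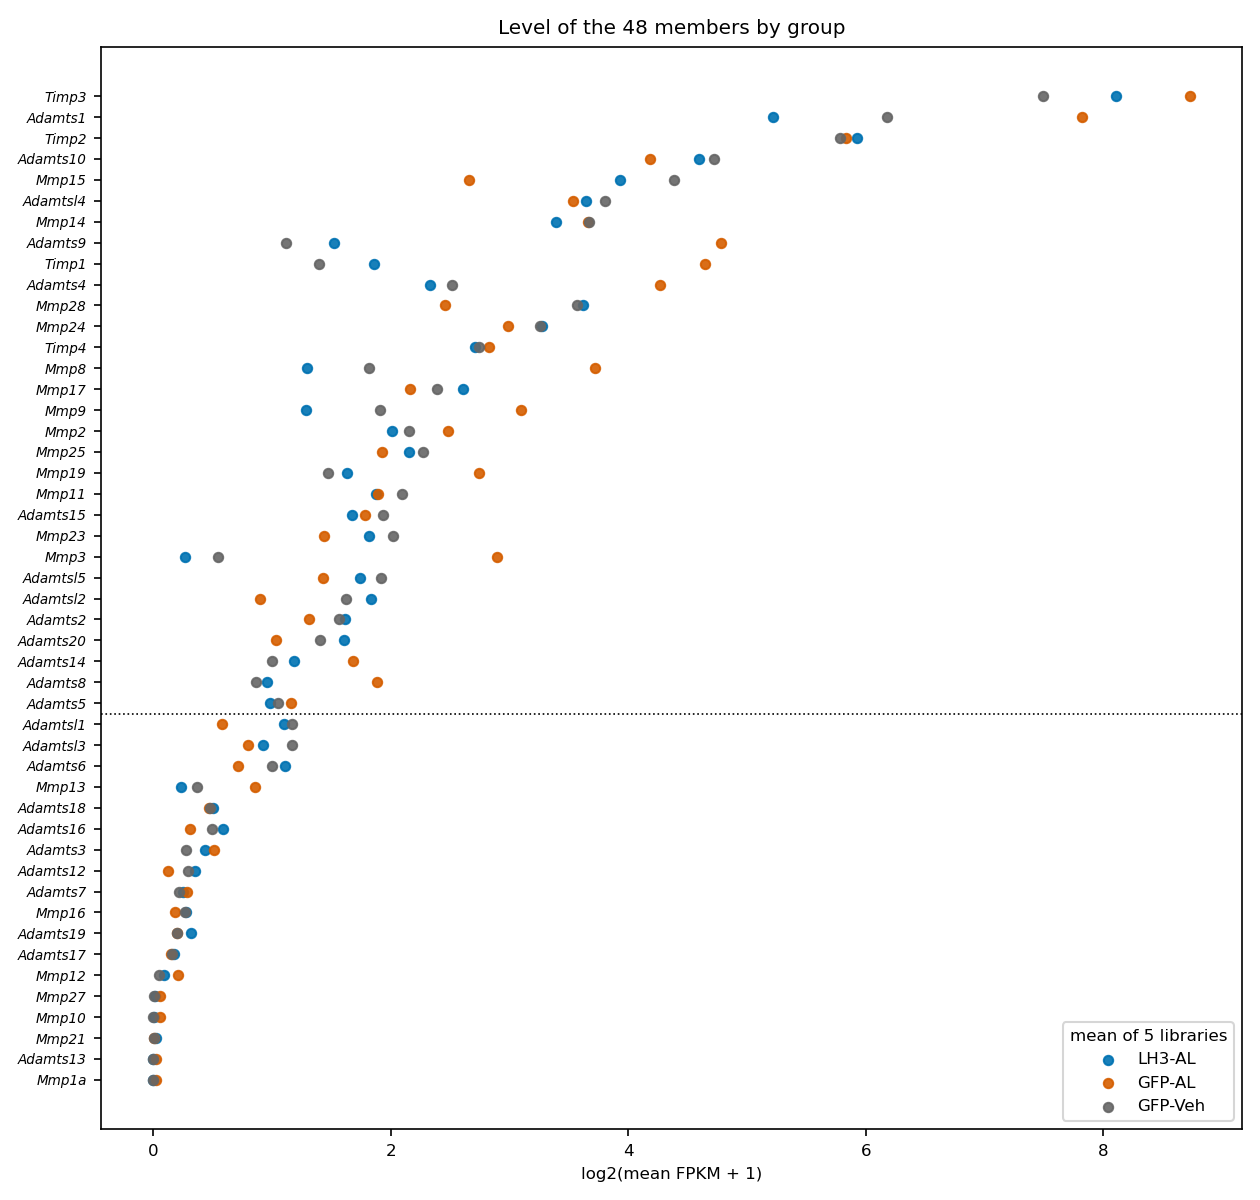
Mean level of each of the 48 members in LH3-AL, GFP-AL and GFP-Veh vessels on the log2(FPKM + 1) scale, 1 point per group (5 libraries each), in order of the mean of the 3 groups. The dotted line separates the 30 members tested, above, from the 18 below the filter. Timp3 was highest in all 3 groups, and Adamts9, Timp1, Adamts4, Mmp8 and Mmp3 show a GFP-AL point well to the right of the other 2.

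In GFP-AL against GFP-Veh, 11 of the 30 tested members were higher and 6 were lower (limma on log2(FPKM + 1), adjusted p below 0.05 over 13082 genes). Among all genes tested 10.8% were higher and 17.7% were lower, 28.6% together. The libraries of both groups did not overlap for 9 members that were higher and 5 that were lower, against 6.59% and 10.1% of all genes. The members' median log2 fold change was 0.01, and that of all genes was -0.09. Without the 3 libraries that lay apart, 9 of 33 members were higher and 8 lower, and Adamts1 and Mmp9 were no longer called. With log2 depth as a covariate 7 were higher and 5 lower. The 11 higher members, and the 9 of them without overlap, include Adamts8 and Mmp3, which the filter admitted through GFP-AL. A filter on a median of at least 1 FPKM in GFP-Veh, which was chosen after seeing the data, gave 8 of 30 higher and 7 lower. Shares of all genes were not counted for these other settings. The 10.8% and 17.7% belong to the first counts of 11 and 6 only. With the filter on the mean, the 11 called higher were Adamts1, Adamts4, Adamts8, Adamts9, Adamts14, Mmp3, Mmp8, Mmp9, Mmp19, Timp1 and Timp3, and the 6 called lower were Adamts10, Adamtsl2, Adamtsl5, Mmp15, Mmp23 and Mmp28.

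In LH3-AL against GFP-AL, 6 members were higher and 11 were lower, while 17% of all genes were higher and 11.4% lower, 28.5% together. Libraries did not overlap for 5 of the higher and 9 of the lower members, against 11% and 8.45% of all genes. The 11 lower members, and the 9 without overlap, include Adamts8 and Mmp3. The filter admitted these through GFP-AL, the group in which they were high, so these counts partly rest on the filter. The members' median log2 fold change was -0.11, against 0.08 for all genes. Without the 3 libraries that lay apart the counts were 6 and 10 of 33. With the filter on GFP-Veh they were 7 and 8 of 30. Here too, shares of all genes were not counted for the other settings. With the filter on the mean, the 11 called lower were Adamts1, Adamts4, Adamts8, Adamts9, Adamts14, Mmp2, Mmp3, Mmp8, Mmp9, Mmp19 and Timp1, and the 6 called higher were Adamts10, Adamts20, Adamtsl2, Adamtsl5, Mmp15 and Mmp28. Both comparisons use the same GFP-AL libraries, so a gene that is high or low in these libraries moves in opposite directions in them, and the values of each are only set side by side.

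In LH3-AL against GFP-Veh, 0 of the 30 members were called higher and 0 lower by limma, where 0.145% of all genes were higher and 0.375% lower, 0.52% together. At an unadjusted p below 0.05 there were 3 members. For 0 members did the libraries of these groups fail to overlap, against 2.06% of all genes higher and 2.61% lower. A call missed at this threshold does not show that the levels were equal.

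**Figure D2:**
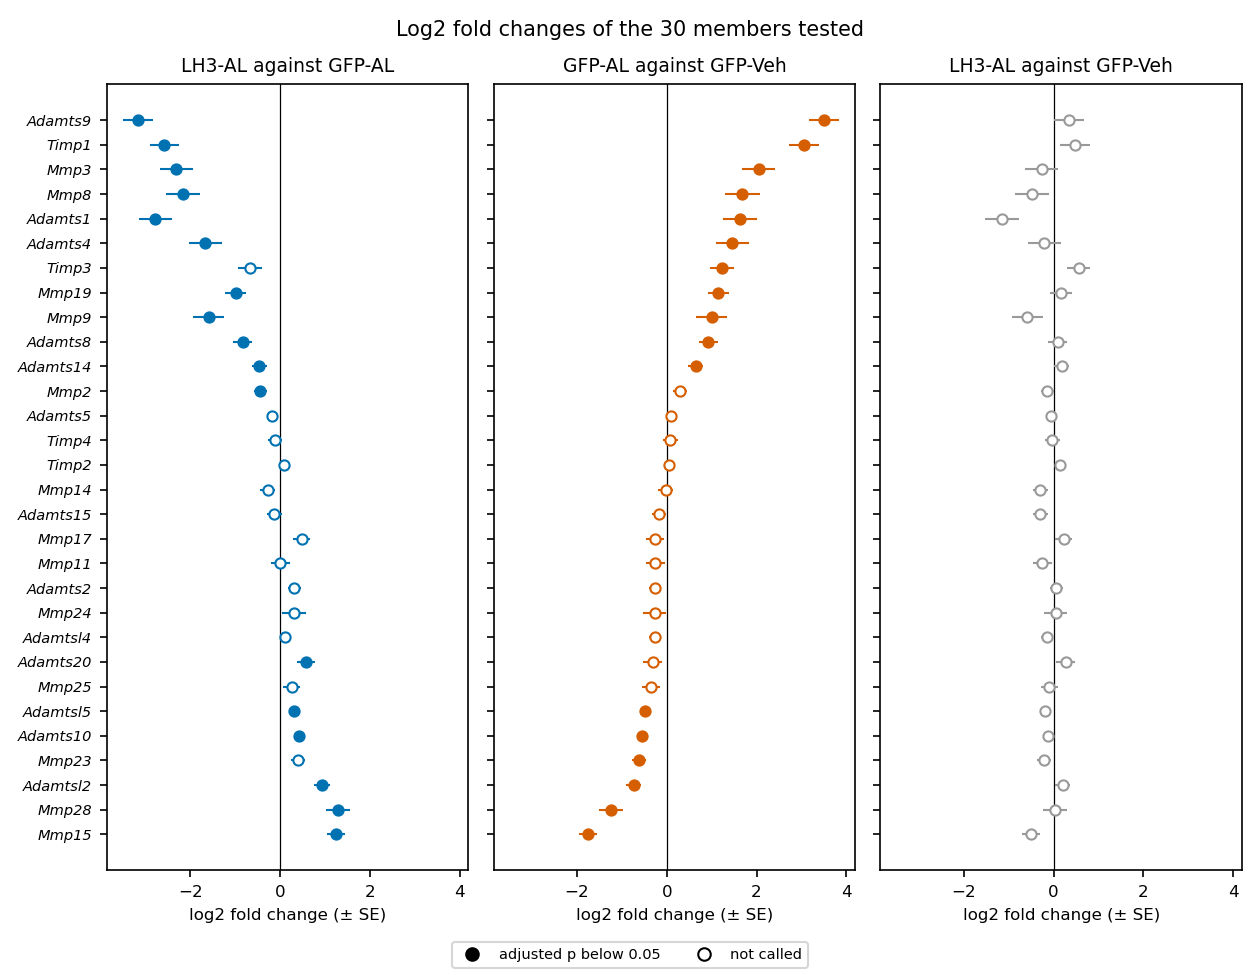
Log2 fold change of the 30 tested members, on the log2(FPKM + 1) scale, with its standard error, in LH3-AL against GFP-AL, GFP-AL against GFP-Veh and LH3-AL against GFP-Veh (5 libraries per group). Filled points passed an adjusted p of 0.05 (limma). Adamts9 and Timp1 stand at the top with 3.50 and 3.05 in GFP-AL against GFP-Veh, Mmp15 at the bottom with -1.75, and no point in LH3-AL against GFP-Veh is filled.

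Adamts9, a secreted protease that cuts versican and aggrecan, had the largest fold change of the 30 tested members on the log2(FPKM + 1) scale, in GFP-AL against GFP-Veh and in LH3-AL against GFP-AL. It had 1.43, 1.18, 1.29, 1.23 and 4.26 FPKM in LH3-AL replicates 1 to 5, 17.5, 56.9, 17.4, 27.4 and 13.5 FPKM in GFP-AL, and 1.68, 0.483, 1.32, 1.10 and 1.25 FPKM in GFP-Veh. Every GFP-AL library lay above all the others, with replicate 2 the highest, and the LH3-AL and GFP-Veh libraries overlapped. The mean in GFP-AL was 22.7 times that in GFP-Veh. On the log2(FPKM + 1) scale, which understates changes of low genes, it rose by 3.50 ± 0.33 in GFP-AL against GFP-Veh (SE, limma, adjusted p = 1.15e-05). In LH3-AL against GFP-AL it fell, with a log2 fold change of -3.16 ± 0.33 (adjusted p = 3.16e-05). LH3-AL against GFP-Veh gave 0.34 ± 0.33 (adjusted p = 0.814).

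Adamts1, which also cuts aggrecan and versican, had the highest mean of its family in all 3 groups. In LH3-AL replicates 3 and 4 it was exceeded by Adamts10, with 25.3 and 24.2 FPKM. Its levels were 75.3, 33.3, 19.3, 13.4 and 39.7 FPKM in LH3-AL, 181, 249, 283, 284 and 126 FPKM in GFP-AL, and 53.1, 51.8, 110.3, 69.3 and 72.2 FPKM in GFP-Veh. GFP-AL libraries did not overlap with either of the other groups, and 4 of the 5 LH3-AL libraries lay below the lowest GFP-Veh library. On the log2 scale the change was 1.63 ± 0.37 in GFP-AL against GFP-Veh (limma, adjusted p = 0.00477) and -2.78 ± 0.37 in LH3-AL against GFP-AL (adjusted p = 1.69e-04). LH3-AL against GFP-Veh gave -1.14 ± 0.37, the lowest value of any member in that comparison, without passing the test (adjusted p = 0.309). Without the 3 libraries that lay apart, the first value was 1.33 (adjusted p = 0.0614). The neighbouring gene Adamts5, 53.06 kb away on chromosome 16, was not called in any comparison.

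Adamts4, an aggrecan-cutting protease that in the brain also cuts brevican, had 4.64, 6.40, 3.41, 3.21 and 2.48 FPKM in LH3-AL, 9.50, 48.8, 8.21, 11.3 and 13.6 FPKM in GFP-AL, and 4.54, 2.72, 4.76, 5.41 and 6.25 FPKM in GFP-Veh. GFP-AL replicate 2 was far above the rest of its group, and the other 4 GFP-AL libraries still exceeded all libraries of the other groups. It rose by 1.46 ± 0.37 in GFP-AL against GFP-Veh (limma, adjusted p = 0.00839) and had -1.66 ± 0.37 in LH3-AL against GFP-AL (adjusted p = 0.0045). With log2 depth as a covariate the first call was lost (1.31, adjusted p = 0.0714).

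Adamts8 had 1.02, 0.855, 0.991, 0.814 and 1.03 FPKM in LH3-AL, 1.08, 5.09, 2.20, 3.48 and 1.63 FPKM in GFP-AL, and 0.901, 0.845, 0.791, 0.852 and 0.700 FPKM in GFP-Veh. GFP-AL replicate 1 lay only just above the other groups and replicate 2 was the highest. Adamts14, which removes the amino-terminal propeptide of procollagen, had 1.12, 0.829, 1.50, 1.68 and 1.26 FPKM in LH3-AL, 2.02, 1.00, 3.22, 2.28 and 2.51 FPKM in GFP-AL, and 0.849, 1.28, 0.867, 0.848 and 1.19 FPKM in GFP-Veh. Here GFP-AL replicate 2 was the lowest of its group and fell inside the range of both other groups. Adamts8 rose by 0.92 ± 0.21 in GFP-AL against GFP-Veh (limma, adjusted p = 0.00489) and had -0.82 ± 0.21 in LH3-AL against GFP-AL (adjusted p = 0.0107). It too passed the filter through GFP-AL, and with no filter the adjusted p was 0.00822 in GFP-AL against GFP-Veh and 0.0172 in LH3-AL against GFP-AL. Adamts14 rose by 0.64 ± 0.17 in GFP-AL against GFP-Veh (limma, adjusted p = 0.0102), a call lost with log2 depth as a covariate (adjusted p = 0.0749). In LH3-AL against GFP-AL it had -0.47 ± 0.17 (adjusted p = 0.0487), and this call was lost when any 1 of GFP-AL replicates 1, 3, 4 or 5 or of LH3-AL replicates 1, 2, 3 or 5 was left out (adjusted p up to 0.123). Adamts8 and its neighbour Adamts15 lie 20.11 kb apart on chromosome 9, and Adamts15 was not called.

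Adamts10, a protease known to bind fibrillin, moved the other way. It had 22.3, 22.2, 25.3, 24.2 and 21.7 FPKM in LH3-AL, 16.5, 14.9, 15.8, 17.4 and 21.3 FPKM in GFP-AL, and 27.1, 21.7, 23.9, 27.1 and 26.9 FPKM in GFP-Veh. All GFP-AL libraries lay below all others, with replicate 5 the nearest. Its log2 fold change was -0.54 ± 0.10 in GFP-AL against GFP-Veh (limma, adjusted p = 0.00111) and 0.42 ± 0.10 in LH3-AL against GFP-AL (adjusted p = 0.007). Adamts20, the closest relative of Adamts9, had 1.80, 2.79, 1.76, 1.98 and 1.89 FPKM in LH3-AL, 1.71, 0.962, 0.859, 0.974 and 0.732 FPKM in GFP-AL, and 3.06, 0.481, 1.75, 1.39 and 1.53 FPKM in GFP-Veh. GFP-AL was below LH3-AL in every library, and GFP-Veh spanned both. LH3-AL against GFP-AL gave 0.58 ± 0.21 (adjusted p = 0.0464), which was lost when any 1 of LH3-AL replicates 1 to 5 or GFP-AL replicates 2 to 5 was left out (adjusted p up to 0.110). GFP-AL against GFP-Veh gave -0.31 (adjusted p = 0.272), and was called without GFP-Veh replicate 2 (-0.50).

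The ADAMTS-like genes were lower in GFP-AL where they were called. Adamtsl2, which binds fibrillin and is mutated in human geleophysic dysplasia, had 3.62, 1.86, 2.15, 2.11 and 3.06 FPKM in LH3-AL, 0.978, 1.47, 0.890, 0.680 and 0.320 FPKM in GFP-AL, and 1.74, 2.16, 2.56, 2.41 and 1.50 FPKM in GFP-Veh. No GFP-AL library reached either other group. On the log2 scale the change was -0.74 ± 0.17 in GFP-AL against GFP-Veh (limma, adjusted p = 0.00521; adjusted p = 0.101 with log2 depth as a covariate) and 0.94 ± 0.17 in LH3-AL against GFP-AL (adjusted p = 0.00135). Adamtsl5 had 2.31, 2.77, 2.28, 2.55 and 1.77 FPKM in LH3-AL, 1.41, 2.03, 1.73, 1.72 and 1.56 FPKM in GFP-AL, and 2.57, 2.64, 2.61, 2.84 and 3.28 FPKM in GFP-Veh. GFP-AL and GFP-Veh did not overlap, and LH3-AL replicate 5 fell inside the GFP-AL range. GFP-AL against GFP-Veh gave -0.50 ± 0.10 (limma, adjusted p = 0.00201) and LH3-AL against GFP-AL 0.31 ± 0.10 (adjusted p = 0.031). The second call was lost without GFP-AL replicate 1 or 5 or LH3-AL replicate 1, 2, 3 or 4 (adjusted p up to 0.0794), and also under median-of-ratios scaling and quantile normalization (adjusted p = 0.0645 and 0.264). Adamtsl4 was not called. Adamtsl1, below the filter, had 0.851 to 1.33 FPKM in LH3-AL, 0.105 to 0.806 FPKM in GFP-AL and 0.999 to 1.46 FPKM in GFP-Veh, so its GFP-AL libraries also lay below all others.

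**Figure D3:**
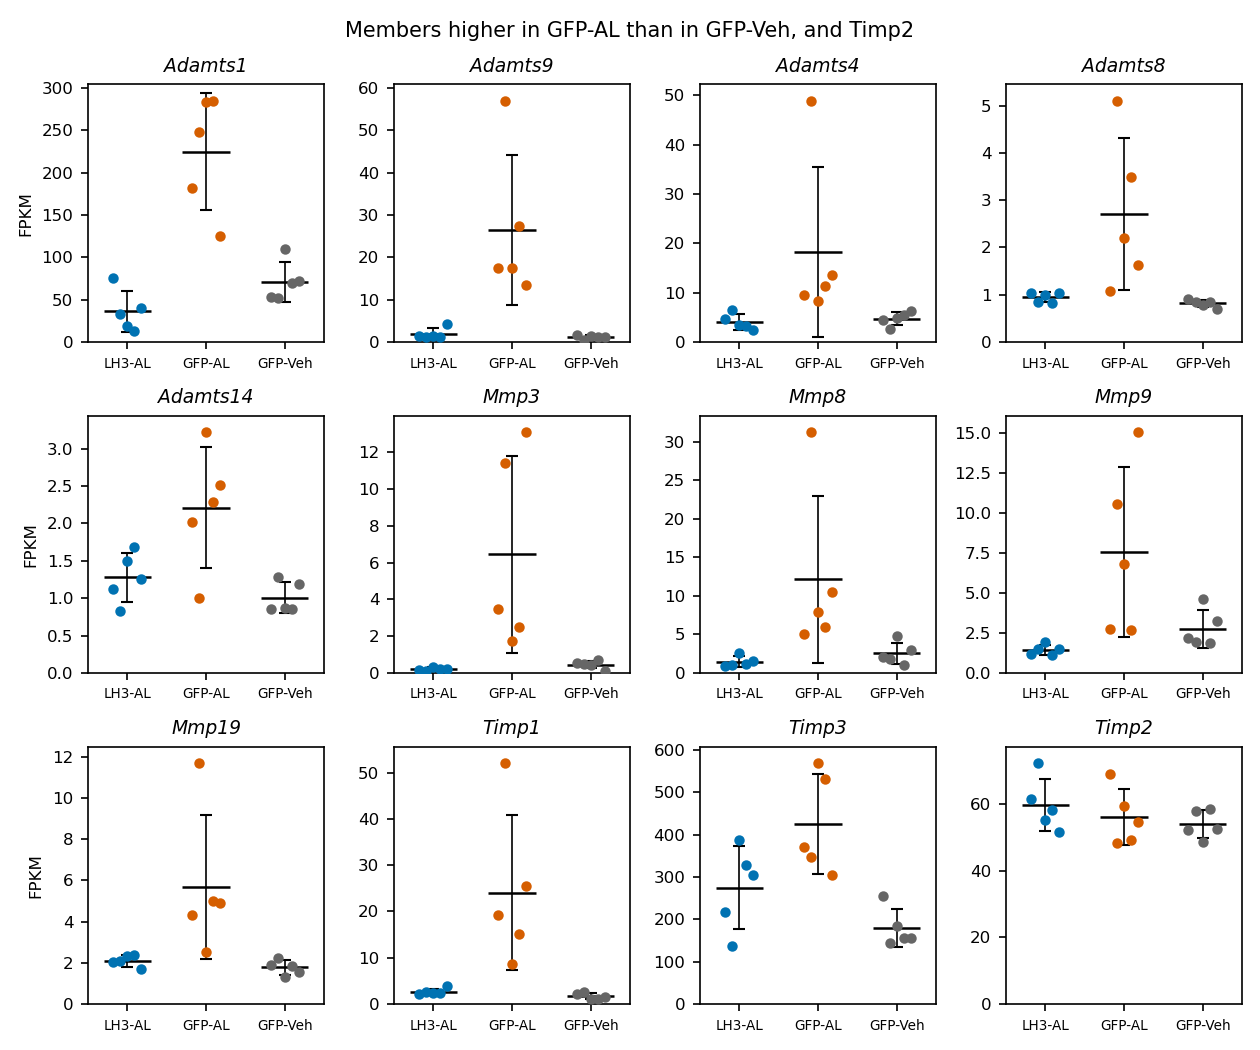
FPKM per library of the 11 members higher in GFP-AL than in GFP-Veh, and of Timp2, in LH3-AL, GFP-AL and GFP-Veh (5 libraries each, in the order of the replicate numbers). Horizontal lines are means and error bars are SD, and each panel has its own axis starting at 0. GFP-AL replicate 2 is the highest point for Adamts9 (56.9), Adamts4 (48.8), Mmp8 (31.2) and Timp1 (52.0), while Timp2 stays between 48.3 and 72.3 in all libraries.

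Among the matrix metalloproteinases, Mmp3, the stromelysin that cuts many matrix proteins and activates other proteases of its family, was nearly absent outside GFP-AL. It had 0.137, 0.101, 0.348, 0.221 and 0.224 FPKM in LH3-AL, 3.48, 11.4, 1.72, 2.51 and 13.1 FPKM in GFP-AL, and 0.524, 0.470, 0.452, 0.710 and 0.123 FPKM in GFP-Veh. GFP-AL did not overlap with either group, and its own libraries differed widely, with replicates 2 and 5 the highest. Its log2 fold change was 2.05 ± 0.36 in GFP-AL against GFP-Veh (limma, adjusted p = 8.84e-04) and -2.31 ± 0.36 in LH3-AL against GFP-AL (adjusted p = 5.05e-04). On raw FPKM the GFP-AL mean was 14.1 times the GFP-Veh mean, and the LH3-AL mean was 0.0320 of the GFP-AL mean, against 0.0708 for Adamts9. Because Mmp3 passed the filter through GFP-AL, its p was also taken from the fit with no filter, where it was 0.00176 in GFP-AL against GFP-Veh and 0.00112 in LH3-AL against GFP-AL (limma, adjusted).

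Mmp3 lies on chromosome 9 in a row of 7 members in the order Mmp13, Mmp12, Mmp3, Mmp1a, Mmp10, Mmp8 and Mmp27. Of these, Mmp3 and Mmp8 passed the filter and both were called in the first 2 comparisons. Mmp13, an interstitial collagenase, had 0.0583 to 0.234 FPKM in LH3-AL, 0.059, 2.45, 0.122, 0.232 and 1.21 FPKM in GFP-AL and 0.116 to 0.522 FPKM in GFP-Veh. Its 2 raised GFP-AL libraries, replicates 2 and 5, were also the 2 highest for Mmp3. Mmp12, the macrophage elastase, had 0.00631 to 0.101 FPKM in LH3-AL, 0.053 to 0.258 FPKM in GFP-AL and 0.00937 to 0.0847 FPKM in GFP-Veh. Mmp10, Mmp1a and Mmp27 stayed below 0.2 FPKM in every library.

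Windows of 300 bases around the start of transcription, 250 before it and 50 after it, were taken from RefSeq (GRCm38.p6) and found for 33 of the 48 members. They were searched on both strands for the AP-1 motif TGANTCA, an NF-kB motif (GGGA, any base, TTTCC) and the STAT motif TTCNNNGAA, and on the gene's strand for the TATA box letters TATAAA. None of these motifs is contained in another. Of all 32851 windows, 7.81% held the AP-1 letters, 0.411% the NF-kB letters, 8.3% the STAT letters and 8.32% the TATA letters, and 0.995% held both AP-1 and TATA letters. AP-1 letters were found in 5 members, Mmp3, Mmp10, Mmp12, Mmp13 and Mmp1a, which are all in the row on chromosome 9, and each of the 5 also held TATA letters. The windows of Mmp8 and Mmp27, the other members of the row, held neither. Of the 11 members higher in GFP-AL than in GFP-Veh, 7 had a window, 1 of them with AP-1 letters (Mmp3) and 2 with TATA letters (Mmp3 and Adamts1). NF-kB letters were in 0 of the windows of members, and STAT letters in 1, that of Mmp23. A match is a run of letters and not a shown binding site. The windows of Mmp3, 2 of its neighbours and Adamts1 are shown, with AP-1 and TATA letters in capitals. They hold the motif pair in Mmp3, Mmp10 and Mmp13, and the TATA letters of the ADAMTS gene with the highest group means. Mmp3 is at chr9:7445572-7445871 on the plus strand, Mmp10 at chr9:7502092-7502391 on the plus strand, Mmp13 at chr9:7272264-7272563 on the plus strand and Adamts1 at chr16:85803064-85803363 on the minus strand.
Mmp3: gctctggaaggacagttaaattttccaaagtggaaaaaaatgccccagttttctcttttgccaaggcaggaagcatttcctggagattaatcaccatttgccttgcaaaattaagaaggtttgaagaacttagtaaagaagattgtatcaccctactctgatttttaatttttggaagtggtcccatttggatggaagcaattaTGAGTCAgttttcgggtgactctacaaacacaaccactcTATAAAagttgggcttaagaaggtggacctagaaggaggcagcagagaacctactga
Mmp10: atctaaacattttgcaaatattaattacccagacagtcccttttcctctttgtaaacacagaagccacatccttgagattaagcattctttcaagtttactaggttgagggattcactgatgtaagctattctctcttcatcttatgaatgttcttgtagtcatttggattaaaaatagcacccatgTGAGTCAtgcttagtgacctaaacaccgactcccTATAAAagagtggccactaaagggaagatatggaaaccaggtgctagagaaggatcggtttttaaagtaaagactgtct
Mmp13: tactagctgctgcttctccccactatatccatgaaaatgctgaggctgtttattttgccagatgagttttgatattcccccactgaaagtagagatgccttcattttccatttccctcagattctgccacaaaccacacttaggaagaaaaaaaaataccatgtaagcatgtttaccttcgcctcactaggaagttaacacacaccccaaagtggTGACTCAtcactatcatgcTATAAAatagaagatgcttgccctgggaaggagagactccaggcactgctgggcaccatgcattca
Adamts1: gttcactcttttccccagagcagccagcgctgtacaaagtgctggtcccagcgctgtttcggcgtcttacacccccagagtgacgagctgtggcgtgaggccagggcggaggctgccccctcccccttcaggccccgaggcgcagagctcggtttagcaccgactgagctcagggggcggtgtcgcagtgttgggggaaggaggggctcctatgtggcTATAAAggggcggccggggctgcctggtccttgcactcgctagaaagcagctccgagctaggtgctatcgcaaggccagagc

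Mmp8, the neutrophil collagenase, had 0.905, 1.04, 2.63, 1.16 and 1.52 FPKM in LH3-AL, 5.00, 31.2, 7.93, 5.98 and 10.6 FPKM in GFP-AL, and 2.07, 1.77, 4.74, 1.07 and 3.00 FPKM in GFP-Veh. GFP-AL lay above both other groups, with replicate 2 far above the rest, and GFP-Veh replicate 3 came closest to it. Mmp9, gelatinase B, which cuts denatured collagen and basement membrane collagen, had 1.16, 1.48, 1.92, 1.15 and 1.47 FPKM in LH3-AL, 2.75, 10.6, 6.83, 2.68 and 15.0 FPKM in GFP-AL, and 2.19, 1.90, 4.59, 1.85 and 3.25 FPKM in GFP-Veh. GFP-AL replicates 1 and 4 fell inside the GFP-Veh range, while LH3-AL lay below all GFP-AL libraries. Mmp8 had log2 fold changes of 1.69 ± 0.38 in GFP-AL against GFP-Veh (limma, adjusted p = 0.00451) and -2.17 ± 0.38 in LH3-AL against GFP-AL (adjusted p = 0.00108). Mmp9 had 1.00 ± 0.35 (adjusted p = 0.0416) and -1.58 ± 0.35 (adjusted p = 0.00424) in the same comparisons. The first Mmp9 call was lost when any 1 of GFP-AL replicates 2, 3 or 5 or GFP-Veh replicates 1, 2, 4 or 5 was left out (adjusted p up to 0.0973), and without the 3 libraries that lay apart the value was 0.66 (adjusted p = 0.280). With log2 depth as a covariate, GFP-AL against GFP-Veh gave 1.38 for Mmp8 (adjusted p = 0.0616) and 0.81 for Mmp9 (adjusted p = 0.211).

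Markers of blood and immune cells also differed between the groups, not all in the direction of these genes. The 11 neutrophil markers summed to 45.9 to 85.1 FPKM in LH3-AL, 117, 924, 304, 144 and 497 FPKM in GFP-AL replicates 1 to 5, and 107 to 350.3 FPKM in GFP-Veh. GFP-AL replicates 2 and 5, the 2 highest for Mmp8, Mmp9 and Mmp3, were also the 2 highest for this sum, and GFP-Veh replicate 3 was the highest of its group for Mmp8, Mmp9 and the sum. GFP-AL replicates 1, 3 and 4 lay inside the GFP-Veh range of this sum. Of 8 neutrophil markers tested, 3 (Retnlg, Cxcr2 and Csf3r) were higher and 0 lower in GFP-AL against GFP-Veh, and 0 were higher and 5 lower in LH3-AL against GFP-AL. The other tested neutrophil markers were not called in GFP-AL against GFP-Veh, and their means went both ways. S100a8 and S100a9 had higher means in GFP-AL. S100a8 averaged 7.97 FPKM in LH3-AL, 62.6 in GFP-AL and 24.4 in GFP-Veh. S100a9 averaged 27.7 FPKM in LH3-AL, 193 in GFP-AL and 76.7 in GFP-Veh. Camp, Ngp and Ltf had lower means in GFP-AL than in GFP-Veh. Camp averaged 2.92 FPKM in LH3-AL, 5.77 in GFP-AL and 11.8 in GFP-Veh. Ngp averaged 13.9 FPKM in LH3-AL, 27.4 in GFP-AL and 44.5 in GFP-Veh. Ltf averaged 1.42 FPKM in LH3-AL, 2.06 in GFP-AL and 4.74 in GFP-Veh. Mpo and Elane, which were not tested, also had lower means in GFP-AL than in GFP-Veh. The defining markers Ly6g, Mpo and Elane averaged below 1 FPKM in all groups, and 2, 2 and 4 of the 15 libraries had less than 0.1 FPKM of them. The 14 microglia and macrophage markers summed to 308 to 395 FPKM in LH3-AL and 689.6 to 979 FPKM in GFP-AL. Their sum was 264 to 512 FPKM in GFP-Veh. In GFP-AL against GFP-Veh 8 were called higher, where 10.8% of all genes were. In LH3-AL against GFP-AL 9 were called lower, where 11.4% of all genes were. Most of the GFP-AL sum was C1qa, Lyz2 and Ctss, which averaged 246, 242 and 154 FPKM there. P2ry12 averaged 3.39 FPKM in GFP-AL and 2.72 in GFP-Veh, and Adgre1 averaged 3.52 and 3.35. Only Aif1 had a lower mean in GFP-AL (1.28 FPKM) than in GFP-Veh (1.47). All 6 red cell markers were higher in GFP-AL against GFP-Veh, with a median log2 fold change of 2.20, and 0 were called in LH3-AL against GFP-AL. They summed to 4766 to 10109 FPKM in LH3-AL, 3869 to 19322 FPKM in GFP-AL and 1469 to 3862 FPKM in GFP-Veh. The part of these cells in the levels of the proteases was not tested.

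**Figure D4:**
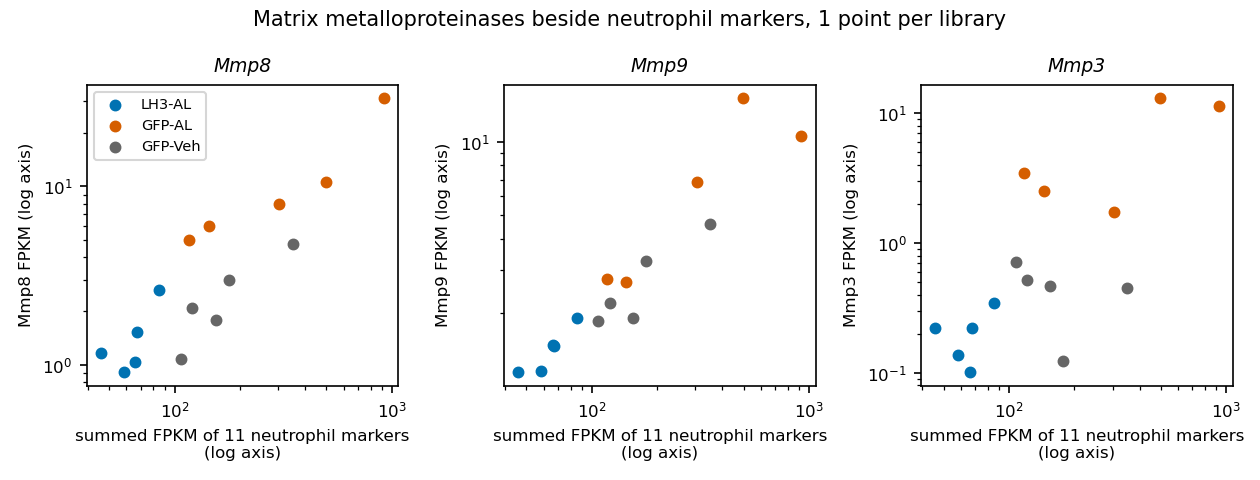
Level of Mmp8, Mmp9 and Mmp3 (vertical, FPKM on a log axis) against the summed FPKM of 11 neutrophil markers (horizontal, log axis), 1 point per library, coloured by LH3-AL, GFP-AL and GFP-Veh. LH3-AL libraries lie at the left with marker sums of 45.9 to 85.1, and the GFP-AL libraries with sums of 497 and 924 have the highest Mmp9 and Mmp3.

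Mmp19, a secreted protease of the basement membrane and other matrix, had 2.02, 2.07, 2.31, 2.39 and 1.67 FPKM in LH3-AL, 4.31, 11.7, 2.51, 5.02 and 4.89 FPKM in GFP-AL, and 1.89, 2.24, 1.30, 1.86 and 1.55 FPKM in GFP-Veh. Every GFP-AL library lay above the others, replicate 3 by little and replicate 2 by much. The log2 fold change was 1.15 ± 0.24 in GFP-AL against GFP-Veh (limma, adjusted p = 0.00249) and -0.98 ± 0.24 in LH3-AL against GFP-AL (adjusted p = 0.00753). Mmp2, gelatinase A, had 3.51, 3.13, 2.74, 2.59 and 3.21 FPKM in LH3-AL, 6.54, 3.36, 5.86, 3.44 and 3.72 FPKM in GFP-AL, and 3.13, 3.99, 2.84, 3.82 and 3.47 FPKM in GFP-Veh. Only GFP-AL replicates 1 and 3 stood above the other groups. GFP-AL against GFP-Veh gave 0.29 (adjusted p = 0.157) and LH3-AL against GFP-AL -0.43 ± 0.15 (adjusted p = 0.0429). This call was lost when any 1 of GFP-AL replicates 1 or 3 or LH3-AL replicates 1 to 5 was left out (adjusted p up to 0.107). Mmp14, the membrane-bound activator of pro-Mmp2, had -0.02 in GFP-AL against GFP-Veh and -0.27 in LH3-AL against GFP-AL and was not called.

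Mmp15, Mmp28 and Mmp23 were lower in GFP-AL. Mmp15, a membrane-type protease of the same subfamily as Mmp14, had 18.9, 18.5, 8.85, 10.7 and 14.1 FPKM in LH3-AL, 6.61, 4.47, 3.45, 7.07 and 4.91 FPKM in GFP-AL, and 16.7, 19.1, 23.8, 21.1 and 18.7 FPKM in GFP-Veh. All GFP-AL libraries lay below all others, and 3 of the 5 LH3-AL libraries lay below every GFP-Veh library. It fell in GFP-AL against GFP-Veh, with a log2 fold change of -1.75 ± 0.20 (limma, adjusted p = 3.35e-05), and rose by 1.25 ± 0.20 in LH3-AL against GFP-AL (adjusted p = 5.94e-04). LH3-AL against GFP-Veh gave -0.50 ± 0.20 (adjusted p = 0.461).

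Mmp28, known as epilysin, had 12.02, 8.72, 13.9, 12.2 and 9.54 FPKM in LH3-AL, 6.78, 1.51, 2.22, 6.65 and 5.36 FPKM in GFP-AL, and 10.7, 9.89, 11.3, 10.7 and 11.7 FPKM in GFP-Veh. GFP-AL replicates 2 and 3 were the lowest, and no GFP-AL library reached the other groups. The log2 fold change was -1.25 ± 0.27 in GFP-AL against GFP-Veh (limma, adjusted p = 0.00302) and 1.28 ± 0.27 in LH3-AL against GFP-AL (adjusted p = 0.00297). Mmp23, which carries a short potassium-channel-blocking domain, had 2.34, 3.49, 2.27, 2.31 and 2.21 FPKM in LH3-AL, 1.92, 2.44, 0.722, 1.93 and 1.52 FPKM in GFP-AL, and 3.14, 3.01, 2.34, 3.19 and 3.61 FPKM in GFP-Veh. GFP-AL replicate 2 reached into both other groups. GFP-AL against GFP-Veh gave -0.61 ± 0.16 (adjusted p = 0.0108) and LH3-AL against GFP-AL 0.41 ± 0.16, which was not called (adjusted p = 0.0714) unless GFP-AL replicate 2 was left out (0.50). Some markers of other cells were also lower in GFP-AL, where 17.7% of all genes were lower: 8 of 9 choroid plexus and ependyma markers, 4 of 7 oligodendrocyte markers and 3 of 5 oligodendrocyte precursor markers were called lower against GFP-Veh. Of 8 pericyte markers, Vtn and Rgs5 were called lower, near the share of all genes. Abcc9, Cspg4, Atp13a5 and Higd1b also had lower means in GFP-AL than in GFP-Veh, without being called. Pdgfrb averaged 61.6 FPKM in LH3-AL, 65.9 in GFP-AL and 57.0 in GFP-Veh. Kcnj8 averaged 25.1 FPKM in LH3-AL, 33.7 in GFP-AL and 29.3 in GFP-Veh. The pericyte markers summed to 1240 to 1569 FPKM in LH3-AL, 776 to 1305 FPKM in GFP-AL and 1315 to 1662 FPKM in GFP-Veh. The choroid plexus and ependyma markers summed to 3175 to 5271 FPKM in LH3-AL, 1972 to 3106 FPKM in GFP-AL and 3690.1 to 9217 FPKM in GFP-Veh. Most of this sum was Ttr, which averaged 4137, 2648 and 5122 FPKM in these groups. Among the oligodendrocyte markers, only Mobp had a higher mean in GFP-AL (300 FPKM) than in GFP-Veh (292). Mbp averaged 90.6 FPKM in GFP-AL and 95.3 in GFP-Veh. The oligodendrocyte markers summed to 480 to 1042 FPKM in LH3-AL, 338 to 886 FPKM in GFP-AL and 674 to 1007 FPKM in GFP-Veh. Their part in the lower protease levels was not tested.

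**Figure D5:**
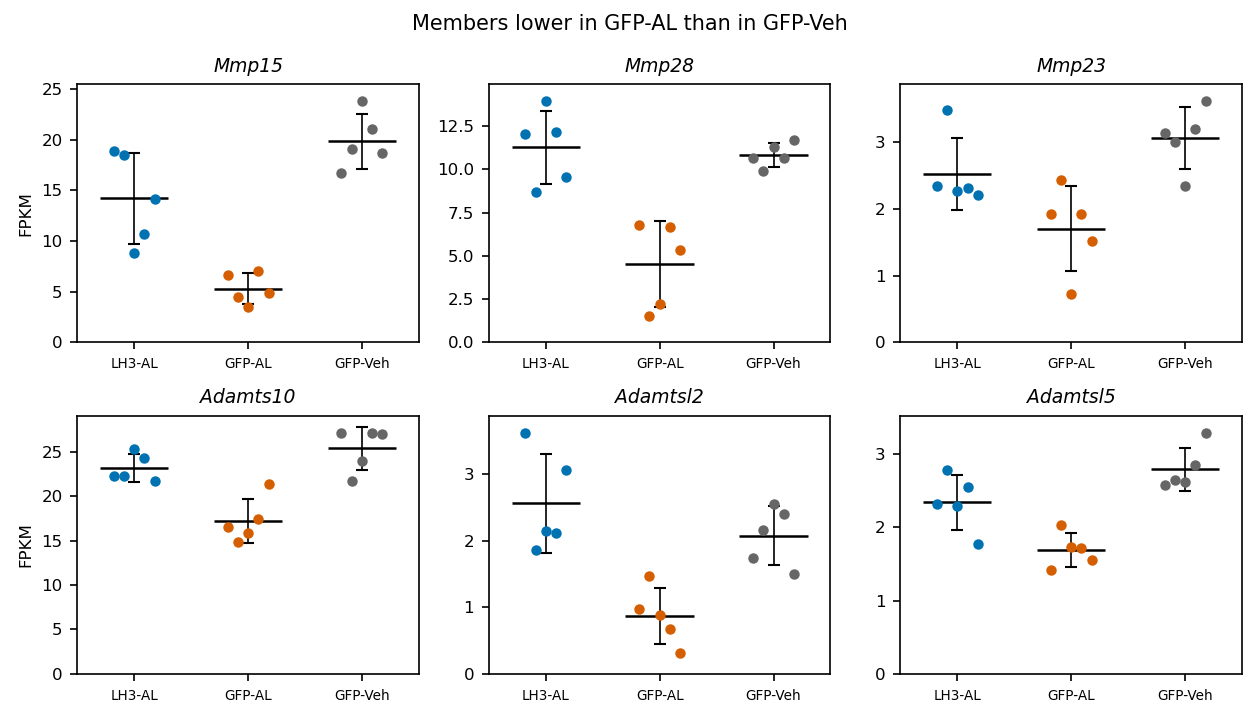
FPKM per library of the 6 members lower in GFP-AL than in GFP-Veh, in LH3-AL, GFP-AL and GFP-Veh (5 libraries each, in the order of the replicate numbers). Horizontal lines are means and error bars are SD, and axes start at 0. Mmp15 is at 3.45 to 7.07 FPKM in GFP-AL and 16.7 to 23.8 in GFP-Veh, and for Mmp23 GFP-AL replicate 2 lies inside the range of both other groups.

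The inhibitors differed among themselves. Timp1, an inducible secreted inhibitor, had 2.20, 2.52, 2.31, 2.29 and 3.78 FPKM in LH3-AL, 19.2, 52.0, 8.66, 15.1 and 25.5 FPKM in GFP-AL, and 2.10, 2.48, 1.01, 1.15 and 1.41 FPKM in GFP-Veh. GFP-AL lay above all other libraries, and LH3-AL and GFP-Veh overlapped. The log2 fold change was 3.05 ± 0.33 in GFP-AL against GFP-Veh (limma, adjusted p = 2.14e-05) and -2.58 ± 0.33 in LH3-AL against GFP-AL (adjusted p = 1.07e-04). Timp1 lies inside the span of Syn1 on the other strand, without exon overlap. Syn1, a synaptic vesicle gene, had log2 fold changes of -0.22 in GFP-AL against GFP-Veh and 0.39 in LH3-AL against GFP-AL, and was not called in either.

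Exons of Adamts9, Mmp19, Mmp28 and Timp3 overlap genes on the opposite strand, and the labels do not say whether the counting used strand. Their partners A730049H05Rik, 1700020L24Rik and Syn3 averaged below 1 FPKM in every group, and Tmem198b, the partner of Mmp19, averaged 7.53 FPKM in LH3-AL, 8.57 in GFP-AL and 7.45 in GFP-Veh and was not called.

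Timp3, which binds to the matrix and blocks some ADAMTS proteases and ADAM17 as well as matrix metalloproteinases, had 218, 137, 388, 328 and 304 FPKM in LH3-AL, 372, 346, 568, 531 and 304 FPKM in GFP-AL, and 255, 145, 185, 155 and 156 FPKM in GFP-Veh. GFP-AL did not overlap with GFP-Veh, while the LH3-AL libraries spread across both ranges. The log2 fold change was 1.23 ± 0.26 in GFP-AL against GFP-Veh (limma, adjusted p = 0.00303), -0.67 ± 0.26 in LH3-AL against GFP-AL (adjusted p = 0.0665) and 0.56 ± 0.26 in LH3-AL against GFP-Veh (adjusted p = 0.552). The value in LH3-AL against GFP-AL was called when GFP-AL replicate 5 or LH3-AL replicate 3 was left out (-0.82 without the second).

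Timp2, which together with Mmp14 takes part in activating pro-Mmp2, had 61.5, 72.3, 55.3, 58.2 and 51.8 FPKM in LH3-AL, 69.0, 48.3, 59.6, 49.3 and 54.6 FPKM in GFP-AL, and 52.4, 58.1, 48.6, 58.5 and 52.7 FPKM in GFP-Veh. Timp4 had 4.37, 6.35, 5.84, 6.04 and 5.01 FPKM in LH3-AL, 6.81, 6.45, 8.02, 4.17 and 5.04 FPKM in GFP-AL, and 6.11, 5.35, 3.80, 6.27 and 6.89 FPKM in GFP-Veh. All 3 groups overlapped for both genes. Timp2 had log2 fold changes of 0.04 ± 0.11 in GFP-AL against GFP-Veh and 0.09 ± 0.11 in LH3-AL against GFP-AL, and Timp4 had 0.08 ± 0.16 and -0.10 ± 0.16, with signs that changed under other settings. In sums per library, the 4 inhibitors reached 218 to 451 FPKM in LH3-AL, 389 to 645 FPKM in GFP-AL and 211 to 315 FPKM in GFP-Veh. The 19 ADAMTS proteases summed to 55.2 to 117 FPKM in LH3-AL, 187 to 382 FPKM in GFP-AL and 86.4 to 151 FPKM in GFP-Veh. The 20 matrix metalloproteinases, in which rises and falls meet, summed to 59.9 to 79.6 FPKM in LH3-AL, 49.3 to 115 FPKM in GFP-AL and 70.9 to 84.1 FPKM in GFP-Veh.

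Other genes of the system were counted in lists. Plasminogen, cut to plasmin by its activators, is a known activator of matrix metalloproteinases. Of 8 tested genes of plasminogen activation and its inhibitors, 4 were higher and 1 lower in GFP-AL against GFP-Veh, and 2 were higher and 4 lower in LH3-AL against GFP-AL. Plaur, the urokinase receptor, averaged 4.19 FPKM in LH3-AL, 58.1 in GFP-AL and 13.8 in GFP-Veh. It was also lower in LH3-AL than in GFP-Veh, by a log2 fold change of -1.59 (limma, adjusted p = 0.0204), a comparison in which 0 members were called. Plat, tissue plasminogen activator, had log2 fold changes of 0.66 and -1.25, and A2m, a broad protease trap, had 0.94 and -0.95, each first in GFP-AL against GFP-Veh and then in the comparison of LH3-AL with GFP-AL.

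Of 16 tested regulators and activators of matrix metalloproteinases, 4 were higher and 6 lower in GFP-AL against GFP-Veh, and 6 higher and 5 lower in LH3-AL against GFP-AL. Furin, a convertase that cuts the propeptide of membrane-type and ADAMTS proteases, averaged 11.6 FPKM in LH3-AL, 19.6 in GFP-AL and 10.3 in GFP-Veh, with log2 fold changes of 0.86 in GFP-AL against GFP-Veh and -0.70 in LH3-AL against GFP-AL, both called. Bsg, the extracellular matrix metalloproteinase inducer, averaged 887 FPKM in LH3-AL, 503 in GFP-AL and 1106 in GFP-Veh and fell, with -1.16 in GFP-AL against GFP-Veh. The integrin gene Itgav had -1.63 in GFP-AL against GFP-Veh and 1.69 in the comparison of LH3-AL with GFP-AL. Another integrin gene, Itgb3, had -0.76 in GFP-AL against GFP-Veh and 1.08 in the comparison of LH3-AL with GFP-AL. Spock2, a matrix proteoglycan, had -1.48 and 1.53. Of 8 ADAM genes, 2 were higher and 1 lower in GFP-AL against GFP-Veh, and 1 higher and 1 lower in LH3-AL against GFP-AL, with Adam8 at 1.07 and -1.21.

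Among 17 substrates of ADAMTS proteases and partners of ADAMTS-like proteins, 4 were higher and 3 lower in GFP-AL against GFP-Veh, and 3 higher and 3 lower in LH3-AL against GFP-AL. Vwf, von Willebrand factor, the substrate of Adamts13, averaged 58.7 FPKM in LH3-AL, 102 in GFP-AL and 29.5 in GFP-Veh, while Adamts13 itself was below 0.1 FPKM in every library. Bcan, the brevican gene, averaged 55.9 FPKM in LH3-AL, 32.5 in GFP-AL and 65.6 in GFP-Veh, with -0.97 in GFP-AL against GFP-Veh and 0.73 in LH3-AL against GFP-AL. Hapln1, a proteoglycan link protein, had -0.72 and 0.68, and Thbs1, thrombospondin 1, had 1.26 and -1.63. Of 20 inflammatory and AP-1 genes known to act upstream of matrix protease genes, 14 were higher and 0 lower in GFP-AL against GFP-Veh, and 0 higher and 15 lower in LH3-AL against GFP-AL. Among them Fosl1, an AP-1 subunit, averaged 0.309 FPKM in LH3-AL, 10.4 in GFP-AL and 0.394 in GFP-Veh, with 2.75 in GFP-AL against GFP-Veh. The transcription factor gene Cebpd averaged 54.5 FPKM in LH3-AL, 304 in GFP-AL and 49.6 in GFP-Veh. Tnfrsf1a, a receptor for tumour necrosis factor, averaged 34.2 FPKM in LH3-AL, 82.3 in GFP-AL and 31.0 in GFP-Veh. The stress-induced factor Atf3 averaged 3.90 FPKM in LH3-AL, 12.6 in GFP-AL and 19.1 in GFP-Veh, and was called lower in LH3-AL than in GFP-Veh (-2.17, limma, adjusted p = 0.00582). The lists were chosen with results of these data known. Over all genes tested 10.8% were higher and 17.7% lower in GFP-AL against GFP-Veh. The shares were 17% and 11.4% in LH3-AL against GFP-AL.

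The authors' deposited tables list the genes they called at an absolute log2 fold change above 1. In the authors' deposited table for GFP-AL against GFP-Veh, 16 members appear, 12 higher and 4 lower. All genes listed there number 1764, with 863 higher and 901 lower. There Adamts9 stands at 4.51, Timp1 at 3.87 and Mmp3 at 3.82 in the authors' deposited table, against 3.50, 3.05 and 2.05 on the log2(FPKM + 1) scale here. The authors' deposited table also lists Mmp12 at 2.09 and Adamtsl1 at -1.33, which lay below the filter used here. The other authors' deposited table is labelled LH3-AL against GFP-Veh, yet its signs match those of LH3-AL against GFP-AL at 995 of the 995 genes tested here, and those of LH3-AL against GFP-Veh at 559 of 995. This authors' deposited table lists 1746 genes, 916 higher and 830 lower. It holds 15 members, 5 higher and 10 lower, among them Mmp3 at -4.94, Adamts9 at -3.85, Mmp13 at -2.23 and Adamts12 at 1.67.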

How the data were processed

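RNA sequencing of cerebral vessels was analysed in 15 libraries, grouped by their titles. The authors deposited an FPKM table, entered here as a score because 5.99% of its values lie below 0, which FPKM cannot do; these were set to 0. Alignment with STAR 2.5.1b to mm8 is named in the submitters' processing notes, while counting and strandedness are named in no label. The authors also deposited log2 fold changes with p-values and q-values for 2 comparisons, per the file headers.

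Symbols on several rows (31) were summed, leaving 22526. Group means of log2(FPKM + 1) were fitted to all 15 libraries in limma 3.58.1 (R 4.3.3) with an intensity trend. The 13082 genes at a mean of at least 1 FPKM were tested, and p-values were adjusted over them by Benjamini-Hochberg. Because the deposited unit holds values below 0, no count test was used. Plod3 was also checked by an exact two-sided permutation test. Depth was estimated from the step between low values, and 43.35% to 65.41% of low values were whole within 0.1 read, so counts were not recovered. Gene positions are those of GENCODE M21 (GRCm38), and none was converted between builds. Scripts were tested on simulated data.

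Values are given in full for members called in any comparison and for the TIMP genes, and up to 4 called genes of a list are named. The members and lists were chosen with earlier results of these data known. The settings varied were the pseudocount (0.1), the filter (none, or a mean of 5 FPKM), median-of-ratios scaling, quantile normalization, only the groups compared, a replicate block, no intensity trend and leaving out each library. Leaving out 3 libraries, a depth covariate and a filter on GFP-Veh alone were chosen after seeing the data. Some genes beside the members are not reported here.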

Additional observations from a re-analysis of the deposited data

Results flagged for a closer look

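Within groups of 5 libraries, 8 of 66 gene-by-group sets held 1 library far from the other 4, with a gap above 0.71 of the group's range. Chance gives about 1 in 20 sets for independent, normally distributed values. FPKM values of genes from the same libraries need not meet this, so no excess is read from the count. GFP-AL replicate 2 was such a library for Adamts4 (48.8 FPKM, next 13.6), Mmp8 (31.2 FPKM, next 10.6) and Mmp19 (11.7 FPKM, next 5.02). This library also had the highest neutrophil marker sum, 924 FPKM, and whether the markers bear on these values was not tested. LH3-AL replicate 5 stood apart for Adamts9 (4.26 FPKM, next 1.43) and Timp1 (3.78 FPKM, next 2.52). LH3-AL replicate 2 stood apart for Mmp23 (3.49 FPKM, next 2.34) and Adamts20 (2.79 FPKM, next 1.98). GFP-AL replicate 1 stood apart for Adamts20 (1.71 FPKM, next 0.974).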

How the results depend on the processing

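Of 34 called values of the named members, 29 were called whichever library was left out and 5 were not, and none of the 34 changed sign. Of 29 values not called, 3 were called without at least 1 library (Adamts20 in GFP-AL against GFP-Veh, Mmp23 and Timp3 in LH3-AL against GFP-AL). Leaving out 1 library gave 10 to 11 members higher and 6 to 9 lower in GFP-AL against GFP-Veh, 4 to 8 higher and 9 to 11 lower in LH3-AL against GFP-AL, and 0 for LH3-AL against GFP-Veh. Shares of all genes were counted only for the fit described above, with none of the settings varied. Plod3 ranged over -0.28 to -0.21 in GFP-AL against GFP-Veh, 0.55 to 0.63 in LH3-AL against GFP-AL and 0.32 to 0.38 for LH3-AL against GFP-Veh. Small uncalled values changed sign: Timp4 over -0.035 to 0.19 in GFP-AL against GFP-Veh and -0.14 to 0.044 in LH3-AL against GFP-Veh, Timp2 over -0.032 to 0.095 in GFP-AL against GFP-Veh, and Mmp28 over -0.039 to 0.12 in LH3-AL against GFP-Veh.

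A mean of at least 5 FPKM left 14 members, with 6 higher and 3 lower in GFP-AL against GFP-Veh and 3 higher and 5 lower in LH3-AL against GFP-AL, since fewer were tested. In GFP-AL against GFP-Veh Mmp9 lost its call with no filter (limma, adjusted p = 0.0623) and with only the 2 groups (0.0945). In LH3-AL against GFP-AL, no filter ended the calls of Adamts14 (0.0687), Adamts20 (0.0672) and Mmp2 (0.0635). Only the 2 groups ended those of Adamts14 (0.0889), Adamtsl5 (0.0601) and Mmp2 (0.0776). A pseudocount of 0.1 ended those of Adamts14 (0.0646) and Adamts20 (0.0553). Log2 depth as a covariate gave 7 higher in GFP-AL against GFP-Veh, Plod3 at -0.25 (adjusted p = 0.0977), Timp4 at -0.00094 and, in LH3-AL against GFP-Veh, Mmp28 at -0.15; the cause was not tested. Plod3 in GFP-AL against GFP-Veh was also not called with median-of-ratios scaling (-0.16) or only the 2 groups (-0.25). In LH3-AL against GFP-Veh Plod3 was called at a mean of 5 FPKM (0.34), after quantile normalization (0.38) and with only the 2 groups (0.34). Quantile normalization gave Timp2 -0.045 in GFP-AL against GFP-Veh. Without the 3 libraries that lay apart, Timp4 had -0.091 in GFP-AL against GFP-Veh and 0.053 in LH3-AL against GFP-AL. For these shifts too the cause was not tested.

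After removal of group means, correlations of same-numbered libraries lay between -0.26 and 0.29. With 5 libraries per group this does not settle whether the replicate numbers pair the libraries. With the replicate block 11 members were higher and 6 lower in GFP-AL against GFP-Veh, 7 higher and 11 lower in LH3-AL against GFP-AL, and 0 for LH3-AL against GFP-Veh; of the named values, Adamts20 (adjusted p = 0.0505) and Mmp2 (0.0599) lost their call and Mmp23 (0.038) and Timp3 (0.0402) gained one in LH3-AL against GFP-AL. Depth limits the members near 0, and FPKM gives no counting error for them.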
